A study of Caenorhabditis elegans with 2 samples.

Results

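Regions at nuclear tRNA genes were taken from ChIP-seq of NHR-237 in Caenorhabditis elegans, from the authors' ce11 list of both replicates together (the pooled list). A region was included when its summit, the position of highest signal, lay on a nuclear chromosome and no more than 500 bp from a gene of biotype tRNA in Ensembl release 115. This gave 293 regions of the 26760 nuclear regions (26787 with mitochondrial DNA), or 1.09% (exact 95% interval 0.974 to 1.23%). Their nearest genes were 270 of the 612 annotated nuclear tRNA genes. The 22 mitochondrial tRNA genes were left out by the rule.

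The study profiled NHR-237, a nuclear hormone receptor protein, in whole worms at the L4 larval stage. All worms carried unc-119(ed3) on chromosome III and the transgene wgIs228 (strain OP228), from which NHR-237 is stably expressed with a C-terminal GFP and FLAG tag, and both sexes were pooled. There was 1 group of 2 biological replicates and no second condition, no wild type and no other age. The antibody is labelled nhr-237 for both samples, which does not say whether the tag or the protein itself was targeted. Signal was read from whole animals that carry the tagged transgene, and tissues could not be told apart. The authors reduced the pooled list to a smaller set by the irreproducible discovery rate (IDR) procedure, which keeps regions that rank alike in both replicates. Of the peaks kept, 213 were nuclear, and they were the 213 nuclear regions of highest signal. The signal is the authors' own value per region and its scale differs between lists, so it is given beside a rank or a percentile, the percentage of nuclear regions of the same list with a lower signal. Read counts are not part of the lists, and depth is unknown. Shares carry exact 95% binomial intervals, which cover counting error over regions only. With 1 group, no test over samples could be made, and differences between sets of regions are described without one.

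tRNA genes are short genes transcribed by RNA polymerase III. Their promoter lies inside the gene as the A box and the B box, which the assembly factor TFIIIC binds, after which TFIIIB is placed upstream and recruits the polymerase. Worm tRNA genes occur as families of identical copies, are scattered through the genome and are most numerous on X. Many of them lie within introns of protein-coding genes.

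The genes below are shown because they are the nearest tRNA genes of the strongest regions. Each is given as RefSeq has the gene on build WBcel235 (ce11), 5′ to 3′ on its own strand. Capitals mark the first match to a loose A box pattern, TNGNNNANNNG with C or T at the fourth base and A or G at the second and the eighth, which starts at base 8 in each, and the B box core GTTCNANNC, which starts at base 52, 53 or 64. C18A11.t2 lies at chrX:8036685-8036757 (minus strand), R11.t1 at chrX:16209769-16209852 (minus), T23F1.t1 at chrV:15465086-15465158 (plus), R04A9.t1 at chrX:410391-410462 (plus) and F46G11.t2 at chrX:5801211-5801282 (minus).
C18A11.t2 (Arg): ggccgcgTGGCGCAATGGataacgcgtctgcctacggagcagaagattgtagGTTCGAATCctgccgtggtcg
R11.t1 (Tyr): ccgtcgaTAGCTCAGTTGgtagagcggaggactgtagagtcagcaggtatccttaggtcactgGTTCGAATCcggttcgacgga
T23F1.t1 (Lys): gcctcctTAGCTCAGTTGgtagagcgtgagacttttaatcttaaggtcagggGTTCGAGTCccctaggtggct
R04A9.t1 (Gln): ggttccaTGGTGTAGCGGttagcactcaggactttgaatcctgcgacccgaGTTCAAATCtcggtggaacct
F46G11.t2 (Pro): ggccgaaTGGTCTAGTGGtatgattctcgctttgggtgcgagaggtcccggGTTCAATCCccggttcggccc

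Summits were packed on the tRNA genes themselves. There were 60 summits inside a tRNA gene, 1.31 per kb of tRNA gene sequence, and 1.29 per kb within 1 to 50 bp of a gene, against 0.267 per kb over the nuclear genome. The density was 0.864 per kb at 51 to 100 bp and 0.397 at 101 to 200 bp. Between 201 and 500 bp it lay from 0.176 to 0.222 per kb, below the genome's value. The excess of summits was thus seen up to 200 bp from the genes, and the outer part of the 500 bp limit held no more summits per kb of the pooled list than the genome at large.

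**Figure D1:**
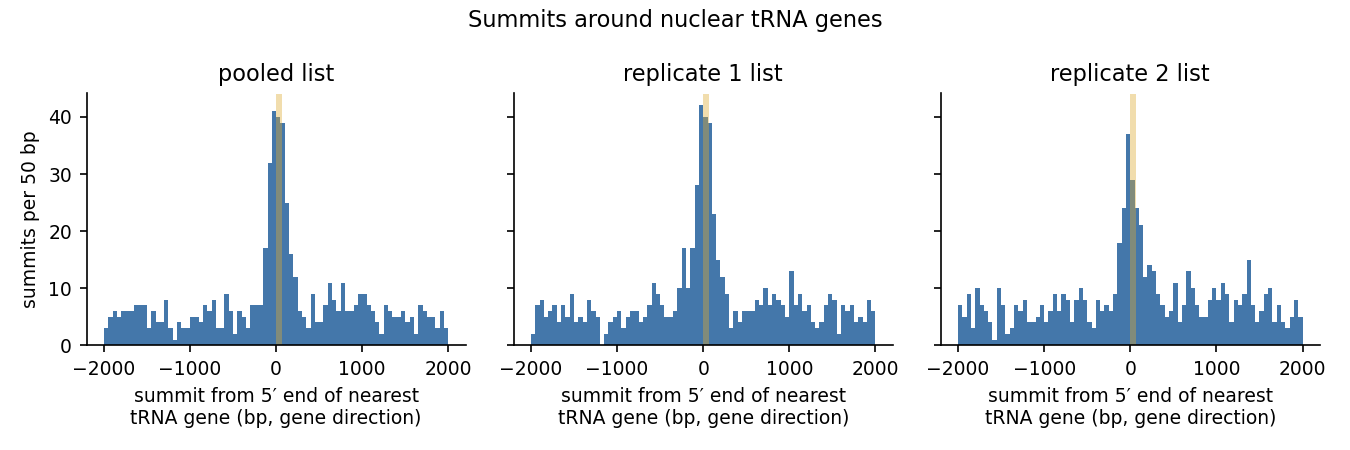
Summits per 50 bp (y axis) against the distance from the 5′ end of the nearest nuclear tRNA gene in the direction of that gene (x axis, bp), for the pooled list and the list of each replicate. The shaded band spans the median gene length of 72 bp, and all 3 lists have their highest bars on the gene and at its edges.

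Each replicate's own list also had its densest summits on and beside the genes. Inside tRNA genes there were 1.35 summits per kb in replicate 1 and 0.916 in replicate 2, where the genome held 0.299 per kb in each list. At 201 to 300 bp the density was 0.367 per kb in replicate 1, above its genome value, and 0.299 in replicate 2. At 401 to 500 bp the values were 0.229 and 0.208 per kb. Within 1 to 50 bp of a gene the pooled list held 1.67 summits per kb on X and 0.985 on autosomes. Inside genes the density was 1.31 per kb on X and on autosomes alike.

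Relative to the direction of transcription, 127 summits (43.3%) lay upstream of the nearest tRNA gene, 60 (20.5%) inside and 106 (36.2%) downstream. The median offset from the 5′ end was 26 bp into the gene, with quartiles at 66 bp upstream and 118 bp downstream of that end. Of the 293 summits, 189 (64.5%) lay within 100 bp of the gene and 232 (79.2%) within 200 bp. At 500 bp, the last regions included were near C16D9.t4 (482 bp, signal 11.0), F22B7.t4 (487 bp, 20.7) and Y73F8A.t4 (497 bp, 8.20). The first ones left out were near C37A5.t1 (509 bp, 7.37), F41D9.t2 (515 bp, 11.4) and T22F3.t3 (519 bp, 7.07).

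Regions at tRNA genes stood above the middle of the pooled list. Their signal ran from 7.01 to 131.5 with a median of 11.1, where the other nuclear regions had a median of 9.40. The median percentile was 70.7 (95% interval of the median 64.2 to 76.4), against 49.8 for other nuclear regions, and 198 regions (67.6%) lay above the 50th percentile. Among the 1000 strongest nuclear regions were 27, so that 2.70% of these lay at tRNA genes (interval 1.79 to 3.90%), beside 1.09% of all nuclear regions. The share among the 1000 strongest was 3.10% in replicate 1 and 2.60% in replicate 2. The weakest region at a tRNA gene, near the Val gene F21A3.t2 on V, had a signal of 7.01 and rank 26439.

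In the pooled list the level was highest on the genes and lower farther out. Regions with the summit inside a tRNA gene had a median percentile of 83.6 (60 regions, interval 71.4 to 91.1), and those at 1 to 100 bp had 76.0 (129 regions, interval 69.3 to 82.4). At 101 to 200 bp it was 60.4 (43 regions), and at 201 to 500 bp 46.5 (61 regions, interval 35.1 to 59.8), close to the 49.8 of other nuclear regions. Within that outer class the median did not fall further, with 41.7 at 201 to 300 bp, 49.8 at 301 to 400 bp and 59.8 at 401 to 500 bp. For the members found in a replicate's list, the medians there from inside the gene to 201 to 500 bp were 80.7, 78.9, 80.7 and 64.6 in replicate 1, and 77.1, 71.7, 68.4 and 79.9 in replicate 2. The outer class was thus the lowest in replicate 1 and the highest in replicate 2. The classes are those of pooled summits, while a replicate's value is that of its strongest overlapping region, whose own summit can lie elsewhere. At B0228.t1, the pooled regions 2 and 202 bp from the gene took the same region of replicate 2 (rank 186). The replicate values therefore cannot show whether the pattern by distance holds within a replicate. Other nuclear regions found in a replicate's list had medians of 67.0 in replicate 1 and 65.9 in replicate 2. GC content moved with distance too. The 201 bp around the summit held a median of 43.8% GC for regions up to 100 bp from the gene, 35.3% for those at 201 to 500 bp, and 35.3% for other nuclear regions. The regions at tRNA genes had lower and upper GC quartiles of 36.3 and 46.8%. Between these, the median percentile was 71.8 for regions at tRNA genes (156 regions) and 51.5 for other nuclear regions (10123 regions). In the same GC range it was 78.2 up to 100 bp from the gene (110 regions, interval 73.0 to 84.1). At 201 to 500 bp it was 45.5 there (24 regions, interval 27.6 to 60.5). The part of GC in the pattern by distance was not tested.

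The share of regions at tRNA genes differed by rank and by chromosome. Of X regions, 7.58% were at tRNA genes at ranks 1 to 213 (5 of 66, interval 2.51 to 16.8%), 12.7% at ranks 214 to 500 (7 of 55) and 1.73% at ranks 20001 to 26760 (20 of 1156, interval 1.06 to 2.66%). Of autosomal regions, 0.680% were at tRNA genes at ranks 1 to 213 (1 of 147, interval 0.0172 to 3.73%), 1.72% at ranks 214 to 500 (4 of 232) and 0.464% at the last ranks (26 of 5604). On X the share was thus larger in every bin down to rank 2000 than at the bottom of the list, with intervals for the first bins that are wide. On autosomes the top bin held a single region, and its interval spans the values of all lower bins. The autosomal share was also larger in every higher bin than at the last ranks. It was 1.71% at ranks 1001 to 2000 (14 of 818) and 1.26% at ranks 2001 to 5000 (31 of 2456, interval 0.859 to 1.79%).

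**Figure D2:**
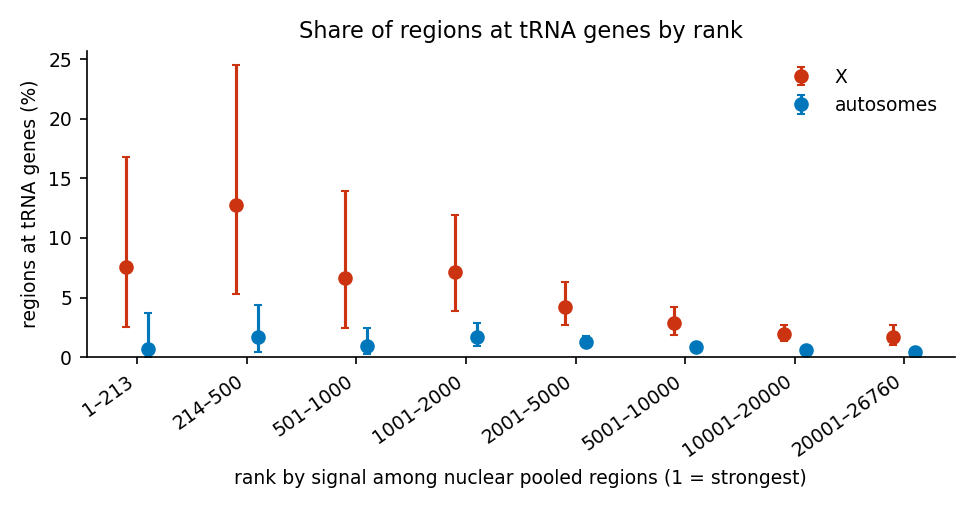
Share of nuclear pooled regions that lie at tRNA genes (y axis, percent) by rank of signal (x axis, 1 is strongest), with X regions and autosomal regions apart; bars are exact 95% intervals over regions. The X share is 12.7% at ranks 214 to 500 and 1.73% at the bottom. The autosomal share is highest at ranks 214 to 500 (1.72%) and is 0.464% at the bottom.

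The share of tRNA genes with a region on X was close to that on autosomes. It held 131 of the 293 regions (44.7%, interval 38.9 to 50.6%), near its 45.1% of tRNA genes (276 of 612) and above its 17.3% of nuclear regions. A summit lay within 500 bp of 52.5% of tRNA genes on X (interval 46.5 to 58.6%) and of 48.2% on autosomes (interval 42.8 to 53.7%), and these intervals overlap. By single chromosome the share was 54.5% on I, 54.4% on II, 45.3% on III, 54.9% on IV and 34.6% on V, the lowest (27 of 78 genes, interval 24.2 to 46.2%). In replicate 1 the share for V was 39.7%, and in replicate 2 it was 38.5%, where III had 32.8%. Of the 27 regions among the 1000 strongest, 18 were on X, which made up 8.53% of the 211 X regions there (interval 5.13 to 13.2%). The 9 on autosomes made up 1.14% of 789 (interval 0.523 to 2.15%). At all ranks together, 2.82% of X regions and 0.732% of autosomal regions lay at tRNA genes. The median percentile was 75.3 on X (interval 63.1 to 82.1) and 68.3 on autosomes (interval 60.3 to 74.1), again with overlapping intervals.

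**Figure D3:**
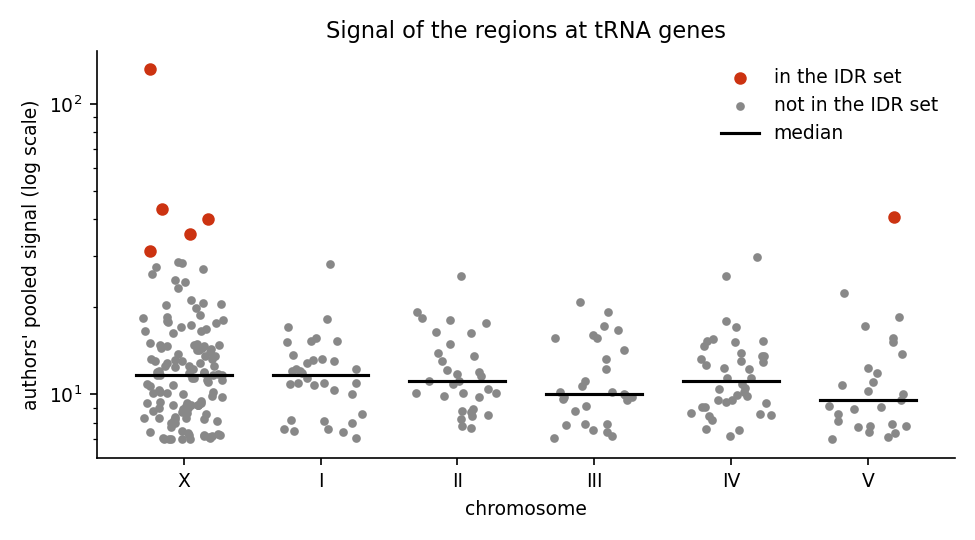
Authors' pooled signal (y axis, log scale) of each of the 293 regions at tRNA genes by chromosome (x axis); lines are medians and larger points are regions in the IDR set. The 6 IDR regions lie on X (5) and V (1), with the highest at 131.5.

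Of the regions at tRNA genes, 6 of 293 overlapped an IDR peak (2.05%, exact interval 0.755 to 4.40%), beside 0.968% of all nuclear regions, and the same 6 were IDR peaks themselves, as were 0.796% of all nuclear regions. The interval includes both background values. On X it was 5 of 131 (3.82%, interval 1.25 to 8.68%), where other X regions had 1.66%. On autosomes it was 1 of 162 (0.617%), where other autosomal regions had 0.811%. The count is small on each side. When as many of the strongest nuclear regions of 1 replicate's own list took the place of the IDR set, replicate 1 had 3 of its 311 tRNA regions (0.965%, beside 0.714% of its nuclear regions) and replicate 2 had 9 of 274 (3.28%, beside 0.717%).

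The strongest region lay near the arginine tRNA gene C18A11.t2, but not on it. It spans chrX:8036313-8036524, had a pooled signal of 131.5 (rank 18) and signals of 92.4 in replicate 1 (rank 13) and 48.6 in replicate 2 (rank 15), where ranks are among nuclear regions of each list. Its summit was 250 bp downstream of the gene and 4878 bp from the nearest protein-coding 5′ end, that of xol-1, the switch gene of worm sex determination. At 212 bp it was the only one of the 293 regions narrower than 340 bp. Its whole deposited interval is shown because of a feature found after its sequence was read. The sequence is from RefSeq on build WBcel235 (ce11), plus strand, with capitals for CGCGCAGG on either strand.
C18A11.t2 region: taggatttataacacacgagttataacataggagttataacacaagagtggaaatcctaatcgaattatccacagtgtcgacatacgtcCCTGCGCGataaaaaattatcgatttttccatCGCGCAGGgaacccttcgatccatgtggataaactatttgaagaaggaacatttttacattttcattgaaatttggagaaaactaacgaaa

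The letters CGCGCAGG are part of a motif known from sites on the worm X chromosome that recruit the dosage compensation complex. The interval holds them once on each strand, from base 90 on the minus strand and from base 122 on the plus strand, with the summit at base 123. Within 100 bp of the summit, the letters occurred on either strand in 37 of the 26760 nuclear regions (0.138%), 22 of them on X (0.474% of X regions). Of the 37, 13 overlapped an IDR peak, where 0.968% of all nuclear regions did. Over the whole deposited interval, they occurred in 54 nuclear regions (0.202%), and of the 293 regions at tRNA genes in this one (0.341%). A match describes the sequence and does not show which protein is bound. Without this region, 5 of 292 (1.71%) overlapped an IDR peak.

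The other 5 IDR regions lay on or beside their tRNA genes, and all 5 stood among the 500 strongest regions of each replicate. The region at the tyrosine gene R11.t1 (chrX:16209684-16210023, pooled signal 43.4, rank 82) had its summit 2 bp upstream of the gene and ranked 222 in replicate 1 and 38 in replicate 2. At the lysine gene T23F1.t1 (chrV:15465015-15465354, 40.9, rank 102) the summit was 27 bp downstream of the gene, and the ranks were 267 and 72. This was the sole autosomal IDR region, and the 5′ end of pqn-71 lay 492 bp from its summit. At the glutamine gene R04A9.t1 (chrX:410103-410442, 40.3, rank 104) the summit was 118 bp upstream and 330 bp from the 5′ end of ZK1193.2, and the ranks were 77 and 253. At the proline gene F46G11.t2 (chrX:5801206-5801545, 35.5, rank 152) the summit was 94 bp upstream, and the ranks were 261 and 86. At the glycine gene M02F4.t1 (chrX:3036059-3036398, 31.3, rank 212) the summit lay inside the gene, and the ranks were 439 and 118. In 4 of these 5 the rank was higher up the list in replicate 2, and R04A9.t1 was the exception.

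Below the IDR limit, the next 15 regions at tRNA genes had signals from 29.7 to 20.7 (ranks 235 to 735) and named 12 isotypes. They were, in order, near F13G11.t1 (Arg, signal 29.7), F15G9.t2 (Ala, 28.5), C33G3.t2 (Lys, 28.3), C37A2.t1 (Cys, 28.0), W02H3.t1 (Leu, 27.5), C42D8.t1 (Ile, 27.1) and ZK563.t1 (Thr, 26.0). Then came C04A2.t1 (Leu, 25.6), C05G6.t1 (Val, 25.6), C06G1.t1 (His, 24.8), C16B8.t2 (Pro, 24.3), F19H6.t1 (Glu, 23.2), F53F8.t1 (Cys, 22.3), C28G1.t1 (Glu, 21.1) and F22B7.t4 (Phe, 20.7). Except at F13G11.t1 (210 bp) and F22B7.t4 (487 bp), their summits lay within 100 bp of the gene. Several were strong in 1 replicate and weak or missing in the other. The region at C05G6.t1 ranked 913 in replicate 1 and 15817 in replicate 2, that at C33G3.t2 ranked 381 and 11059, and that at F53F8.t1 ranked 529 in replicate 1 and met no region of replicate 2. The region at C28G1.t1 went the other way, with rank 3009 in replicate 1 and 228 in replicate 2. The summits at C28G1.t1 and F22B7.t4 also lay 1 and 242 bp from a protein-coding 5′ end. A region near sup-7, the tryptophan tRNA gene known for its amber suppressor alleles and named here after its values were seen, had signal 19.8 (rank 853), with ranks of 6592 and 409.

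A larger share of regions at tRNA genes than of all nuclear regions was found in both replicates' lists, but their signals in the replicates were only weakly related. An overlap of 1 bp or more counted. Replicate 1 held 228 of the 293 regions (77.8%), beside 67.5% of all nuclear regions, and replicate 2 held 179 (61.1%), beside 51.2%. Both lists held 132 (45.1%, interval 39.3 to 50.9%), beside 29.6%, and neither held 18 (6.14%), where other nuclear regions had 11.0%. Among the 1000 strongest regions of each replicate at once were 11 (3.75%, interval 1.89 to 6.62%), beside 1.24%. Stronger pooled regions of any kind met both lists more often: at ranks 1001 to 2000 the share was 66.7% for regions at tRNA genes (18 of 27) and 68.1% for all nuclear regions. Lower down it was 45.8% (27 of 59) and 36.0% at ranks 5001 to 10000, and 26.2% (21 of 80) and 21.1% at ranks 10001 to 20000.

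**Figure D4:**
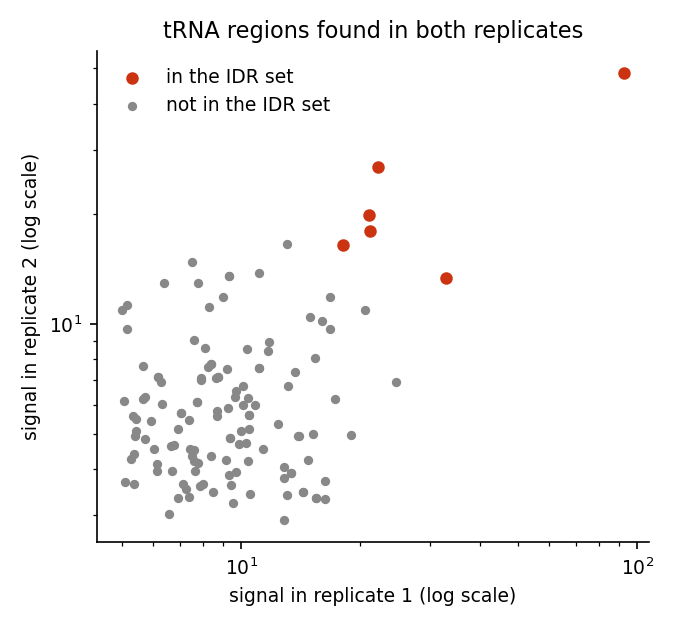
Signal in replicate 1 (x axis, log scale) and replicate 2 (y axis, log scale) of the 132 regions at tRNA genes found in both lists, taking the strongest overlapping region of each. The 6 regions in the IDR set lie at the upper right, and the others form a cloud with no clear slope.

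Across these 132 regions Spearman's rho between the replicates' signals was 0.134, and across the 7795 other nuclear regions found in both it was 0.170. It was 0.239 over the 63 on X and -0.04 over the 69 on autosomes. Without the 6 IDR regions rho was 0.0072 over 126. For other nuclear regions outside the IDR set it was 0.097 over 7546. The 6 IDR regions are those of highest pooled signal at tRNA genes, and why rho was lower without them was not tested. These values describe regions of the same 2 libraries and are not a test, and the 132 regions rested on 120 distinct pairs of replicate regions. A summit lay within 500 bp of 314 tRNA genes in replicate 1 (51.3% of 612) and of 277 in replicate 2 (45.3%), with 175 in common. Of the genes with a region in replicate 1, 55.7% had one in replicate 2, beside 45.3% of all tRNA genes. For protein-coding genes, by their 5′ ends, these shares were 46.8% and 34.5%. The larger overlap of tRNA genes thus stood beside a larger share of genes with a region in each list.

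About as many tRNA genes had a region as had none. A pooled summit lay within 500 bp of 307 of the 612 genes (50.2%, interval 46.1 to 54.2%), and the same distance from a 5′ end took in 32.6% of 19973 protein-coding genes, which can have several 5′ ends. More than 1 region was found at 44 tRNA genes, and 52 of the 293 regions had 2 or more tRNA genes in reach. RefSeq gave an isotype, the amino acid a tRNA carries, for all but 5 of the 612 genes.

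Every isotype with 10 or more genes had regions. The share of genes with one was highest for phenylalanine (64.3%, 9 of 14), arginine (63.6%, 28 of 44, interval 47.8 to 77.6%), proline (61.9%, 26 of 42) and cysteine (61.5%, 8 of 13). It was lowest for glycine (32.7%, 18 of 55, interval 20.7 to 46.7%), isoleucine (37.9%, 11 of 29), and then for asparagine and histidine (8 of 20 genes each). The order was not kept in the replicates: glycine had 41.8% in replicate 1 and 47.3% in replicate 2, and phenylalanine 35.7% and 42.9%, while arginine had 63.6% and 52.3% and proline 61.9% and 59.5%. The only selenocysteine tRNA gene had 2 regions (strongest signal 9.91). Neighbouring isotypes in this order did not differ beyond their intervals.

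**Figure D5:**
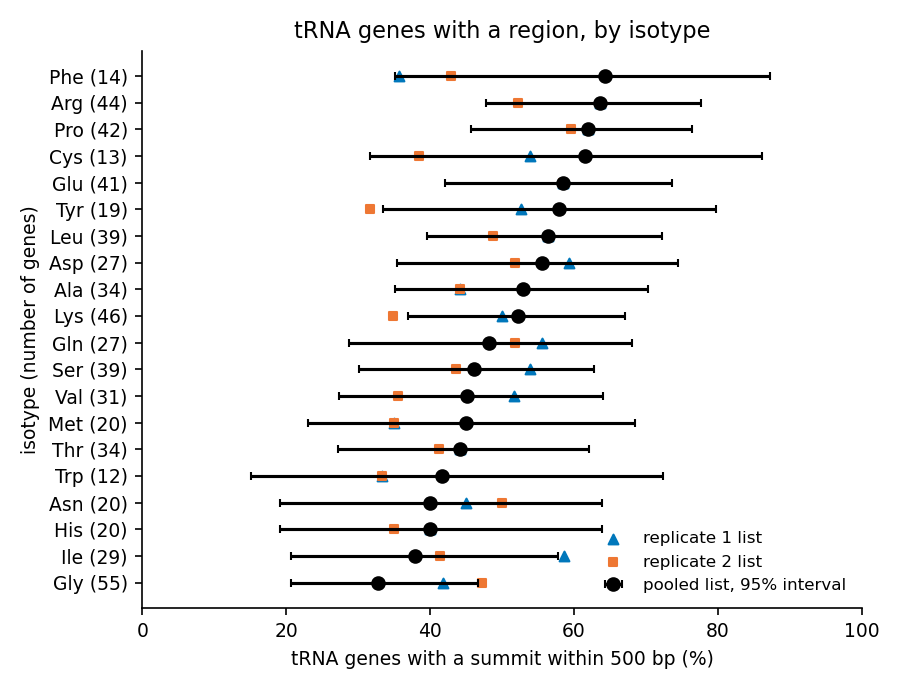
Percentage of tRNA genes with a summit within 500 bp (x axis) for each isotype of 10 or more genes (y axis, gene number in brackets), in the pooled list with exact 95% intervals and in each replicate's list. Arginine (63.6%) and proline (61.9%) are near the top and glycine (32.7%) is last, and most intervals overlap.

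Signal by isotype gave a different order. Regions nearest to cysteine genes had a median percentile of 91.3 (5 regions), those nearest to glutamine genes 91.1 (12 regions) and those nearest to aspartate genes 82.1 (14 regions). The 15 regions nearest to serine genes had 28.7. Leucine (24 regions) had 64.5 and arginine (28 regions) 76.2. The 6 IDR regions fell to 6 different isotypes.

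Genes were also described by how many identical copies they have. The 612 genes comprised 200 different sequences, and 143 genes had a sequence of their own. A region was found at 44.1% of these single-copy genes (63 of 143, interval 35.8 to 52.6%), at 41 of 82 genes with 2 to 5 identical copies, at 54.1% with 6 to 15 copies (125 of 231, interval 47.5 to 60.7%) and at 78 of 156 with 16 or more. The strongest region of each such gene had a median percentile of 61.8, 63.9, 78.5 and 83.4 in these 4 classes. In replicate 1 the share of genes with a region was 48.3%, 46.3%, 51.5% and 56.4%, and in replicate 2 it was 44.1%, 40.2%, 44.6% and, in the last class, 78 of 156. The last class was thus the highest in each replicate but not in the pooled list. IDR regions lay within 500 bp of 9 of the 612 tRNA genes. Of these, 4 were in the class of 6 to 15 copies and 5 in the class of 16 or more, with none among the 225 genes with fewer. The 9 genes rest on 6 regions, of which 3 had 2 or more tRNA genes in reach. So few regions cannot tell the classes apart. Reads from identical copies cannot be told apart inside the gene, and the sources used here do not give how such reads were handled. Its part in these values was not tested.

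The sequence around the summits held parts of the tRNA genes. The B box core GTTCGANNC, searched on both strands within 100 bp of the summit, was found in 35.2% of regions at tRNA genes (103 of 293) and 1.37% of other nuclear regions. The wider form GTTCNANNC, added after the genes above were read and including the first, was found in 48.5% and 6.82%. On their own strand, 72.1% of the 612 tRNA genes hold the first form and 95.9% the wider one. The A box core TGGCNNAGT was found in 6.83% and 1.96%, and in 9.97% of tRNA genes. These shares follow from the nearness to tRNA genes that chose the regions. Of motifs that are not promoter boxes of tRNA genes, GAGAGA was found in 23.2% of regions at tRNA genes (interval 18.5 to 28.5%) and in 13.3% of other nuclear regions, CTGCGTC in 4.10% and 2.66%, and GCGCGC in 2.05% and 1.98%. GAGAGA also occurs in 3.27% of the tRNA genes on their own strand, and the other two in none. Only for GAGAGA did the interval leave out the value of the other regions.

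Most regions at tRNA genes, like most other nuclear regions, were away from protein-coding promoters. A protein-coding 5′ end lay within 500 bp of 22.2% of summits at tRNA genes (65, interval 17.6 to 27.4%). Among other nuclear regions it was 27.1%, which that interval includes. Of all 293 summits, a further 43.3% lay outside protein-coding genes (other regions, 26.6%), with no such 5′ end in reach. Another 24.2% lay in introns of these genes (27.5%) and 10.2% in their exons (18.8%), again with none in reach. A summit inside a tRNA gene was placed by protein-coding genes only. The 228 regions with no protein-coding 5′ end that near had a median percentile of 71.5, where other such regions had 48.8, and 4 of them overlapped an IDR peak (1.75%, beside 0.767%). The 65 with one had 68.5, where other regions with one had 52.8. tRNA genes inside protein-coding genes had a region in 47.8% of cases (139 of 291) and those outside in 52.3% (168 of 321). An snoRNA gene was also in reach of 2 regions, an snRNA gene of 1 and a miRNA gene of 1.

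Regions at other short RNA genes, chosen by the same 500 bp rule, ranked as high or higher. The median percentile was 71.9 for the 203 nuclear regions at snoRNA genes, which guide RNA modification (interval 64.5 to 75.4), and 84.6 for the 49 at snRNA genes, which encode splicing RNAs (interval 67.7 to 92.6). The IDR share was 3.94% at snoRNA genes (interval 1.72 to 7.62%) and 18.4% at snRNA genes (interval 8.76 to 32.0%), where the 2.05% of tRNA regions overlaps the first interval only. Over regions found in both replicates, rho was 0.134 at tRNA genes, 0.428 at snoRNA genes (102 regions on 87 distinct pairs of replicate regions) and 0.661 at snRNA genes (30 regions on 22 distinct pairs).

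Genes for proteins that make, process or charge tRNAs had no IDR peak. The gene of a region was the one whose 5′ end was nearest to the summit, within 2000 bp, and 0.821% of 19973 protein-coding genes had an IDR peak by this rule. None was found among 7 genes of RNA polymerase III and its factors, 32 aminoacyl-tRNA synthetase genes, which charge tRNAs with amino acids (4 further symbols were not found in the annotation), and 12 genes of tRNA processing and modification. At that background, lists of this size could hold none. Weaker regions lay at 5 of 7, 23 of 32 (71.9%) and 8 of 12 (66.7%) genes, and at 54.1% of all protein-coding genes. The strongest were at ears-2, a mitochondrial glutamyl-tRNA synthetase gene (signal 27.1, rank 295), rpac-19, a subunit gene shared by RNA polymerases I and III (17.9, rank 1247), mtcu-2 (17.2, rank 1410) and kars-1, the lysyl-tRNA synthetase gene (17.1, rank 1454). The ligase gene of tRNA splicing, rtcb-1, had 14.2 (rank 3225), the gene of the largest polymerase III subunit, rpc-1, had 10.6 (rank 9326), and mafr-1, which encodes the worm Maf1 repressor of polymerase III, had 8.64 (rank 16777).

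The peak lists, per the text files deposited with the samples, are derived from the alignments and from 1 further file that the control-normalized tracks are also derived from. The sources used here do not give what that file holds, no untagged strain was used here, and whether other ChIP experiments would give signal at the same tRNA genes was not tested.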

How the data were processed

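The authors deposited narrowPeak lists for each replicate (30000 regions each), for both pooled, and for the IDR peaks, on builds ce11 and ce10. Only ce11 was used, since its coordinates are those of WBcel235; ce10 was not analysed here. The signal per region and the −log10 q value are the authors' deposited values. The q values tie at the maximum for 389 nuclear regions and were not used. For aligner, peak caller, filters and IDR threshold: not given in the sources used here. Per the text files deposited with the samples, IDR peaks were derived from the pooled and both replicates' lists. From these files were computed distances from summits to genes of Ensembl release 115, ranks, overlaps (1 bp), Spearman's rho, exact (Clopper-Pearson) 95% intervals, order-statistic intervals of medians, and motif matches in 201 bp, in Python 3.11.15 with scipy 1.17.1, checked on simulated data. Isotypes and sequences came from RefSeq, and all 612 genes matched by identifier. Members, lists and named genes were chosen with earlier results of these data known. Named genes were those nearest the IDR regions, the 15 next regions, the weakest, and 3 on either side of the 500 bp limit. In the gene lists, up to 4 genes of highest signal could be named. sup-7, xol-1 and the genes nearest to IDR regions besides tRNA genes were named after their values were seen. Alternatives were other distances, overlaps, thresholds, single replicates and exclusion of protein-coding 5′ ends.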

Additional observations from a re-analysis of the deposited data

How the results depend on the processing

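Of 47 recomputed values, 32 stayed within the interval of the reported value (for rho, within 0.1), 15 moved beyond it and 0 changed sign. Only rho could change sign, since the other results are percentages or percentiles. With summits within 200 bp and 1000 bp, the share of nuclear regions at tRNA genes was 0.867% and 1.61%, and 39.9% and 66.3% of tRNA genes had a region, by the construction of the limit. The median percentile was 64.0 at 1000 bp and 77.7 for summits within 100 bp, a limit chosen after the profile was seen. With 1 replicate's list alone, the ranges were 0.914 to 1.04% for the share of regions, 45.3 to 51.3% for tRNA genes with a region, 62.9 to 63.9 for the median percentile, 43.7 to 45.3% for X and 0.965 to 3.28% for the share among the strongest regions. The last value depends on the replicate, with 3 regions without replicate 2 and 9 without replicate 1. Among IDR peaks at or above the median signal, 2 regions remained (0.683%, beside 0.433% of nuclear regions). Regions in both replicates numbered 33.1% with 50% reciprocal overlap (all nuclear regions 19.5%) and 22.9% with summits within 100 bp (13.1%), where rho was 0.253 and 0.351 (all nuclear regions 0.209 and 0.242). Results that need both lists could not be computed without a replicate. No paired analysis was possible because there is 1 group. Depth is unknown, so no limit of detection can be given.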
